A study of Danio rerio with 9 samples.

Results

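Müller glia (MG) sorted by FACS from *gfap:GFP* zebrafish retinas were profiled by polyA RNAseq. The genes described here are those of the synapse and of inner retinal neurons. They were given as a list of 41 gene symbols for synaptic machinery, neurotransmitters and the bipolar, amacrine and ganglion cells. Whether MG themselves express some of them was not tested. Symbols were matched to the names table whatever their case, and where none matched, the symbol without its final a or b was used and every gene ID with it was taken. By this rule 18 symbols matched directly, 22 matched without the final letter and 1 (*vamp1*) did not match. The ID of *syt1b* was not among the genes counted. The remaining 39 symbols gave 50 gene IDs of the 23707 in the count table, and 48 of them passed the filter on low counts. Because the names table often gives a pair of zebrafish copies a single human symbol, 27 of the 50 IDs share their symbol with another ID. Such IDs are written here with their Ensembl number, and which copy is a and which is b was not assigned.

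The 9 libraries formed 3 groups of 3, namely Wt uninjured, Wt at 2 days post injury (dpi) and *mych*-/- at 2 dpi. All fish were adults that carried the *gfap:GFP* transgene, in which the *gfap* promoter labels MG and, after injury, activated MG and the progenitors they give rise to. Injured retinas received a set of needle pokes, a mechanical injury of the retina, and *mych*-/- fish carry a frameshift allele. Cells came from pooled retinas, the 9 libraries hold no uninjured *mych*-/- group. The labels do not say whether the libraries of a group came from separate fish. The p-values weigh a difference between groups against the spread between these libraries, which may not be one between fish.

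Chemical synapses release transmitter when vesicle proteins (synaptobrevins, encoded by *vamp* genes) pair with proteins of the plasma membrane (*snap25* and syntaxin genes), under the control of synaptotagmin, the calcium sensor, and of complexin. In the retina, photoreceptors and bipolar cells release glutamate at ribbon synapses, most amacrine cells release GABA or glycine, and ganglion cells send the output to the brain. General synaptic genes are shared by photoreceptors and inner neurons, whereas transcription factors such as *vsx1* or *pou4f2* mark single classes. MG enclose these neurons with fine processes and are not known to build synapses of this kind.

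Library totals ran from 46835977 to 77133615 counts, and at this depth the spread between libraries rather than counting set the precision of most members. CPM (counts scaled to a common library total) were computed with edgeR's TMM factors, which ran from 0.898 to 1.13. MG markers were present in every library, with a summed level of 10402 to 17287 CPM in Wt uninjured, 14835 to 23077 CPM in injured Wt and 13027 to 35318 CPM in *mych*-/- 2 dpi libraries over 13 IDs. Here and below, ± after a log2 fold change gives its SE. *mych* itself rose with injury in Wt MG (log2 fold change 3.68 ± 0.33, edgeR adjusted p 7.61e-06) and differed by -0.55 (± 0.30, edgeR adjusted p 0.335) between genotypes, which for a frameshift allele neither checks nor contradicts the labels. The sorted cells also held photoreceptor RNA. The 16 rod marker IDs summed to 16991 to 31008 CPM in uninjured libraries against 1679 to 4548 CPM in Wt and 2340.0 to 3935 CPM in *mych*-/- libraries at 2 dpi, and the 12 cone marker IDs to 42947 to 67601, 13188 to 24389 and 17184 to 24883 CPM.

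The first comparison asked how the neuronal genes changed in Wt MG preparations with injury. Of the 48 members tested, 40 were lower at 2 dpi and 1, *gap43*, was higher, where a gene is called at an adjusted p of at most 0.05 with a log2 fold change beyond 0.5 in either direction. The 40 make 83.3% of the members, against 19.8% of all genes tested that were called lower (42.1% were called in either direction and 22.3% higher). The median log2 fold change of the 48 was -1.78, a level 3.42-fold lower, while that of all 20484 genes tested was -0.02. Among the 40, falls ran from 1.55-fold to 6.08-fold. In 40 members, not all of them those called lower, every Wt 2 dpi library lay below every uninjured library, which held for 27.9% of all genes. *SLC18A3* ENSDARG00000006356 and *STX3* ENSDARG00000001880 were called lower but overlapped. *GAD1* ENSDARG00000093411 and *CPLX3* ENSDARG00000099196 did not overlap but were not called. In such sorted samples, fewer neurons or neuron fragments, less RNA in each of them and a change in MG themselves cannot be told apart. The rod and cone markers moved the same way (12 of 15 and 11 of 12 tested IDs called lower, medians -3.18 and -1.68), and the MG markers mostly the other way (7 of 13 called higher, 1 lower, median 1.27). The part of these other cells in the result was not tested.

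**Figure D1:**
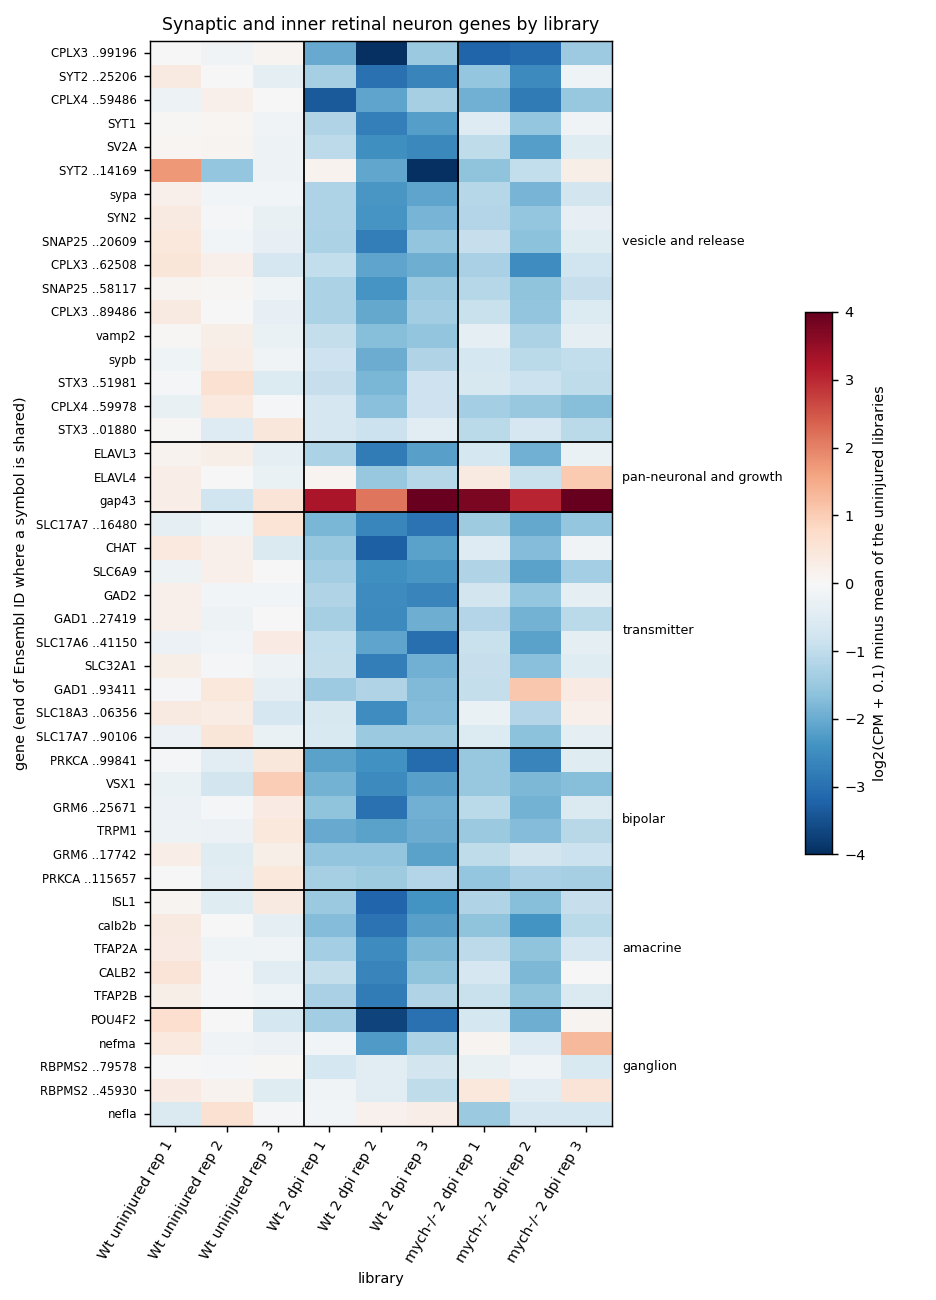
Each row is 1 of 46 tested members and each column 1 of the 9 libraries, and the colour gives log2(CPM + 0.1) minus that member's mean over the 3 uninjured libraries (blue lower, red higher, scale limited to -4 and 4). Nearly all rows are blue in both 2 dpi groups, *gap43* is the one row that is red throughout them.

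The vesicle and release machinery was the largest role, with 19 IDs, and 17 of them were lower after injury (over all 19, median -1.77 and range -2.37 to -0.70). *SNAP25*, whose product pairs with syntaxin in the fusion complex, was represented by a pair of IDs. *SNAP25* ENSDARG00000020609 stood at 1521, 1059.5 and 902 CPM in the uninjured libraries, 475, 167 and 379 CPM in the Wt 2 dpi libraries and 601, 360.4 and 818 CPM in the *mych*-/- libraries. *SNAP25* ENSDARG00000058117 stood at 1333, 1265 and 1086 CPM, then 513, 239 and 434 CPM, then 560.0, 403 and 646 CPM in the same order. For both, no Wt 2 dpi library reached the lowest uninjured one, and the log2 fold changes were -1.77 (± 0.40, edgeR adjusted p 0.00392) and -1.63 (± 0.29, edgeR adjusted p 0.000793). *SYT1* (ENSDARG00000030614), the fast calcium sensor of release, read 1239.5, 1254 and 1088 CPM in uninjured, 518, 179.5 and 260.0 CPM in injured Wt and 826, 409 and 1072 CPM in *mych*-/- libraries. It fell by 1.90 on the log2 scale in Wt MG (± 0.41, edgeR adjusted p 0.00295), and the *mych*-/- libraries spanned the range from the Wt 2 dpi level to nearly the uninjured level.

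Synaptophysin, an abundant protein of the vesicle membrane, gave the same direction for both of its genes. *sypa* (ENSDARG00000110528) went from 482, 384 and 387 CPM to 176, 83.2 and 96.5 CPM in Wt MG and stood at 189.8, 116 and 247 CPM in *mych*-/- MG. *sypb* (ENSDARG00000002230) went from 409, 570.2 and 419 CPM to 261, 117 and 201 CPM, with 283, 216 and 230.3 CPM in *mych*-/- MG. The log2 fold changes with injury were -1.82 for *sypa* (± 0.33, edgeR adjusted p 0.00092) and -1.27 for *sypb* (± 0.28, edgeR adjusted p 0.00302). *vamp2* (ENSDARG00000056877), the synaptobrevin of the vesicle, fell from 170.0, 194 and 139 CPM to 86.3, 51.0 and 55.6 CPM and read 128, 68.8 and 129.5 CPM in *mych*-/- MG (log2 fold change with injury -1.38 ± 0.28, edgeR adjusted p 0.00196). *SV2A* (-1.85), a vesicle glycoprotein, *SYN2* (-1.78), a synapsin that tethers vesicles, and *SYT2* ENSDARG00000025206 (-2.19) were called lower as well, the last not without Wt 2 dpi replicate 3 (-1.99, edgeR adjusted p 0.0521). *SYT2* ENSDARG00000014169 (-1.82 ± 1.44, edgeR adjusted p 0.343) held 6.92, 0.618 and 1.71 CPM in uninjured MG and was not called.

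Syntaxin 3, the syntaxin of ribbon synapses, and complexins 3 and 4, which in mice are the complexins of ribbon synapses, showed the smallest as well as some of the largest falls of this role. *STX3* ENSDARG00000051981 fell by 1.22 (± 0.32, edgeR adjusted p 0.00906). *STX3* ENSDARG00000001880 was at -0.70 (± 0.26, edgeR adjusted p 0.0444), with Wt libraries that overlapped. Its call was lost in 9 of 15 alternative fits, and without uninjured replicate 3 its value was -0.45 (edgeR adjusted p 0.208), without uninjured replicate 1 -0.67 (0.103), without Wt 2 dpi replicate 1 -0.69 (0.0917), without Wt 2 dpi replicate 2 -0.60 (0.141), and without *mych*-/- replicate 1 or 3 -0.70 (0.0614) or -0.71 (0.0505). *CPLX4* ENSDARG00000059978 read 646, 1049.7 and 750.2 CPM in uninjured, 499.7, 253 and 449 CPM in injured Wt and 313, 281 and 244 CPM in *mych*-/- libraries, a log2 fold change of -1.02 with injury (± 0.27, edgeR adjusted p 0.00984). Here 2 of the 3 *mych*-/- libraries lay above the lowest Wt 2 dpi library and none above the other Wt 2 dpi libraries. *CPLX4* ENSDARG00000059486, at 4.95 to 6.66 CPM in uninjured MG, fell by 2.13 (± 0.65, edgeR adjusted p 0.0204). Of the *CPLX3* IDs, ENSDARG00000089486 fell by 1.56, ENSDARG00000062508 by 1.69, and ENSDARG00000099196, at -2.37 with an SE of 1.16, was not called. *CPLX4* ENSDARG00000059486 lost its call without uninjured replicate 2 (-2.01, edgeR adjusted p 0.0687), Wt 2 dpi replicate 1 (-1.72, 0.0556) or Wt 2 dpi replicate 2 (-2.09, 0.06), and *CPLX3* ENSDARG00000062508 without uninjured replicate 1 (-1.41, 0.0646), Wt 2 dpi replicate 2 (-1.48, 0.0589) or Wt 2 dpi replicate 3 (-1.54, 0.0624). The difference between IDs of the same symbol was not tested.

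The pan-neuronal and growth genes moved in different directions. *ELAVL3* (ENSDARG00000014420), which encodes the neuronal RNA-binding protein HuC, fell from 414, 439 and 291 CPM to 157, 54.1 and 83.9 CPM (log2 fold change -1.96 ± 0.44, edgeR adjusted p 0.00393). Its relative *ELAVL4* (ENSDARG00000045639), which encodes HuD, stood at 162, 134 and 114 CPM in uninjured and 147, 46.7 and 61.2 CPM in Wt 2 dpi libraries, groups that overlap, with a log2 fold change of -0.68 (± 0.47, edgeR adjusted p 0.276), and without Wt 2 dpi replicate 1 it was called lower (-1.34, edgeR adjusted p 0.0327). *gap43* (ENSDARG00000099744) encodes a growth cone protein that regrowing fish ganglion cells induce. It rose from 6.98, 3.28 and 8.35 CPM to 56.7, 26.0 and 90.5 CPM in Wt MG preparations, 9.28-fold (log2 fold change 3.21 ± 0.51, edgeR adjusted p 0.000469), and read 78.9, 48.6 and 132 CPM in *mych*-/- MG. Every injured library of either genotype was above every uninjured library, and the genotypes overlapped. Which cells the *gap43* RNA came from was not tested.

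**Figure D2:**
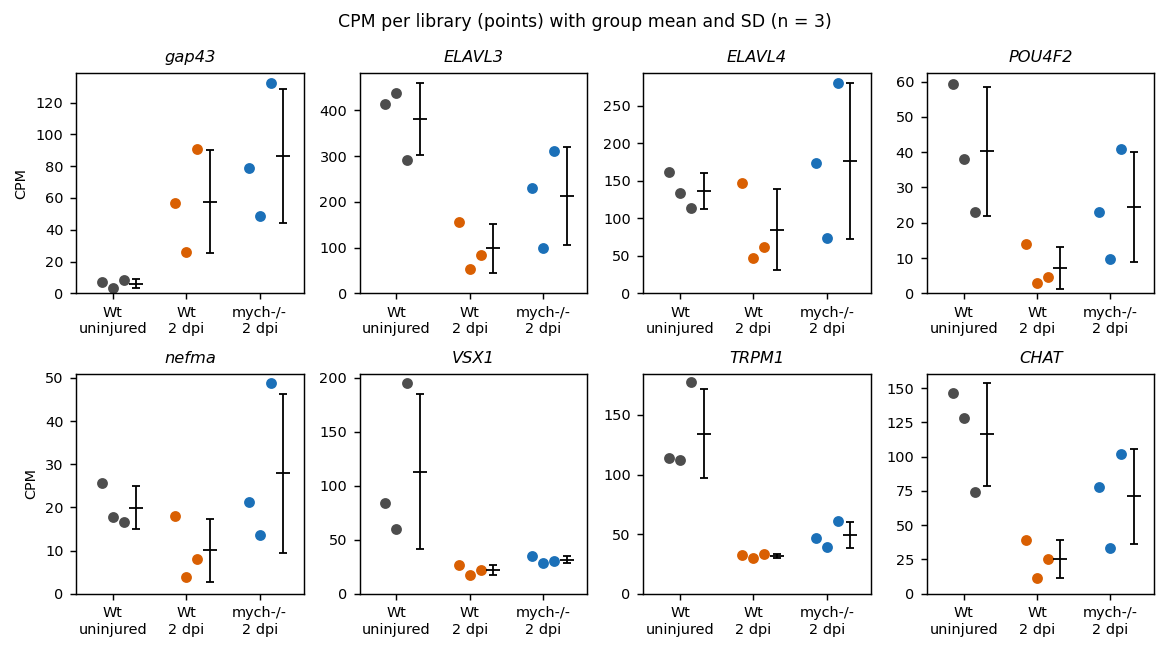
CPM of 8 members (vertical axes, each from 0) in the 9 libraries by group, with points for libraries and a bar for the group mean and SD (n = 3). *gap43* is the only panel in which both injured groups lie above the uninjured libraries, and *ELAVL4* and *nefma* overlap between all groups.

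The transmitter genes comprised 12 IDs, of which 10 were tested and 9 were lower after injury (median -1.85). Glutamate is loaded into vesicles by the transporters encoded by *SLC17A7* and *SLC17A6*. *SLC17A7* ENSDARG00000016480 fell from 90.6, 107 and 175 CPM to 33.3, 19.3 and 15.4 CPM (log2 fold change -2.45 ± 0.33, edgeR adjusted p 0.000143) and stood at 44.0, 29.0 and 40.8 CPM in *mych*-/- MG. *SLC17A7* ENSDARG00000090106 fell by 1.18 (± 0.36, edgeR adjusted p 0.0194) and *SLC17A6* ENSDARG00000041150 by 1.83 (± 0.52, edgeR adjusted p 0.0142). Without Wt 2 dpi replicate 2 neither was called (-1.03 with edgeR adjusted p 0.0795, and -1.69 with 0.0584), nor was that *SLC17A7* ID without uninjured replicate 2 (-0.89, 0.0877) or Wt 2 dpi replicate 3 (-1.04, 0.0803). *SLC17A6* ENSDARG00000001127, with 25 counts in Wt 2 dpi replicate 1, 3 counts in *mych*-/- replicate 3 and 0 elsewhere, was not tested.

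RNA of the genes for GABA synthesis and loading fell. *GAD1* ENSDARG00000027419, a glutamate decarboxylase, read 1387, 1046 and 1183 CPM in uninjured, 477, 205 and 310.1 CPM in injured Wt and 532, 325 and 567 CPM in *mych*-/- libraries (log2 fold change with injury -1.86 ± 0.32, edgeR adjusted p 0.00062). *GAD2* (ENSDARG00000015537), the other glutamate decarboxylase, read 801, 642 and 639.5 CPM, then 299, 121 and 111 CPM, then 418, 236 and 528 CPM (log2 fold change with injury -1.97 ± 0.39, edgeR adjusted p 0.00195). In both genes the groups of Wt libraries did not overlap. The vesicular GABA and glycine transporter *SLC32A1* fell by 1.70 (± 0.42, edgeR adjusted p 0.00626). *GAD1* ENSDARG00000093411, at 1.31, 1.88 and 1.02 CPM in uninjured MG and 0.438, 0.534 and 0.328 CPM in Wt MG at 2 dpi, had a log2 fold change of -1.69 (± 0.94, edgeR adjusted p 0.172) and was the tested transmitter gene that was not called. The glycine transporter *SLC6A9* (ENSDARG00000018534) fell from 625, 834 and 708 CPM to 272, 129 and 141 CPM (log2 fold change -2.0 ± 0.32, edgeR adjusted p 0.00046) and read 308, 162 and 282 CPM in *mych*-/- MG.

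The acetylcholine genes mark the starburst amacrine cells. *CHAT* (ENSDARG00000015854), choline acetyltransferase, read 146, 128 and 74.4 CPM in uninjured, 38.9, 11.5 and 25 CPM in injured Wt and 78.1, 33.4 and 102 CPM in *mych*-/- libraries, with a log2 fold change of -2.21 with injury (± 0.48, edgeR adjusted p 0.00306). Its vesicular transporter *SLC18A3* ENSDARG00000006356 fell by 1.51 (± 0.47, edgeR adjusted p 0.0223), although Wt 2 dpi replicate 1, at 43.1 CPM, lay just above uninjured replicate 3, at 42.3 CPM. It lost the call without uninjured replicate 1 (-1.30, edgeR adjusted p 0.0741) or 2 (-1.38, 0.0682), and without Wt 2 dpi replicate 2 (-1.18, 0.0789) or 3 (-1.37, 0.0867). *SLC18A3* ENSDARG00000107527 had 33 counts in uninjured replicate 3, 35 counts in Wt 2 dpi replicate 2 and 0 elsewhere, and was not tested.

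All 6 bipolar cell IDs were lower after injury, and this role had the largest median fall (-2.09) of the 6 roles. ON bipolar cells sense glutamate through the receptor encoded by *GRM6*, which closes the channel encoded by *TRPM1*. *TRPM1* (ENSDARG00000011259) had the smallest injury p-value of any member. It fell from 114, 112 and 177 CPM to 32.1, 29.8 and 32.9 CPM (log2 fold change -2.09 ± 0.23, edgeR adjusted p 3.4e-05) and read 47.0, 39.4 and 60.6 CPM in *mych*-/- MG, so that each group was apart from both others. *GRM6* ENSDARG00000017742 read 13.8, 8.23 and 13.6 CPM, then 3.78, 3.83 and 2.56 CPM in Wt, then 5.64, 6.84 and 6.35 CPM in *mych*-/- MG at 2 dpi. *GRM6* ENSDARG00000025671 read 47.1, 52.0 and 68.7 CPM, then 17.9, 6.92 and 14.4 CPM, then 26.3, 14.8 and 37.1 CPM. They fell by 1.81 (± 0.34, edgeR adjusted p 0.00117) and 2.1 (± 0.39, edgeR adjusted p 0.00116) in Wt MG.

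*VSX1* (ENSDARG00000056292), a homeobox factor of bipolar cells, stood at 83.6, 60.3 and 195 CPM in uninjured and 26.5, 16.8 and 22 CPM in Wt 2 dpi libraries, and at 34.9, 28.4 and 30.6 CPM in *mych*-/- libraries (log2 fold change with injury -2.38 ± 0.38, edgeR adjusted p 0.000455). Uninjured replicate 3 was thus more than 100 CPM above the other uninjured libraries. It was the highest uninjured library in 5 of the 6 bipolar IDs. Without that library the bipolar median was -1.78, nearer to 0 than the amacrine median of -1.92, so the order of the roles rested on it. *PRKCA*, the protein kinase C used as a bipolar cell marker, had the largest fall of any called member at ENSDARG00000099841 (-2.60 ± 0.54, edgeR adjusted p 0.00235). *PRKCA* ENSDARG00000115657 went from 78.8, 59.8 and 106 CPM to 31.3, 29.7 and 35 CPM and 27.2, 32.6 and 31.3 CPM in *mych*-/- MG, a log2 fold change of -1.35 with injury (± 0.22, edgeR adjusted p 0.000481).

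The amacrine role had 5 IDs, all of them lower after injury (median -1.84, range -2.23 to -1.62). *TFAP2A* (ENSDARG00000059279), a transcription factor of amacrine cells, read 307, 215 and 221 CPM in uninjured, 95.6, 42.7 and 69.5 CPM in injured Wt and 118, 79.5 and 153 CPM in *mych*-/- libraries (log2 fold change with injury -1.84 ± 0.32, edgeR adjusted p 0.000701). *TFAP2B* fell by 1.62 (± 0.39, edgeR adjusted p 0.00541). *ISL1* (ENSDARG00000004023), a LIM homeobox factor that ON bipolar and ganglion cells also use, read 89.8, 59.9 and 107 CPM, then 29.7, 9.10 and 15.8 CPM, then 36.2, 25.3 and 43.4 CPM, and fell by 2.23 (± 0.40, edgeR adjusted p 0.000936). Calretinin, a calcium buffer of amacrine and ganglion cells, was measured at a pair of IDs. *calb2b* (ENSDARG00000036344) went from 224, 177 and 139 CPM to 53.6, 22.8 and 39.2 CPM (log2 fold change -2.23 ± 0.37, edgeR adjusted p 0.000628), with 57.8, 33.3 and 83.8 CPM in *mych*-/- MG. *CALB2* (ENSDARG00000041062) went from 94.6, 64.8 and 48.1 CPM to 34.7, 10.7 and 21.6 CPM (log2 fold change -1.63 ± 0.48, edgeR adjusted p 0.0165), with 42.0, 19.2 and 66.2 CPM in *mych*-/- MG. *CALB2* lost the call without uninjured replicate 1 (-1.31, edgeR adjusted p 0.0679) and without Wt 2 dpi replicate 2 (-1.30, 0.0595) or 3 (-1.61, 0.0581).

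The ganglion cell role had the fewest calls in either direction for its size, 2 of 5 IDs. Its median was the nearest to 0 (-0.63), close to that of the pan-neuronal and growth role (-0.68). The longer list of 23 further ganglion IDs, taken up below, had a median of -1.61. *POU4F2* (ENSDARG00000069737), a POU factor of ganglion cells, read 59.4, 38.0 and 23.2 CPM in uninjured, 14.1, 2.81 and 4.66 CPM in injured Wt and 23.1, 9.65 and 40.8 CPM in *mych*-/- libraries. It fell by 2.48 with injury (± 0.64, edgeR adjusted p 0.00833), the largest fall of the role. *RBPMS2* ENSDARG00000079578, which encodes an RNA-binding protein of ganglion cells, went from 185, 179.6 and 192 CPM to 114, 134 and 111 CPM, with 151, 167 and 121 CPM in *mych*-/- MG (log2 fold change with injury -0.63 ± 0.18, edgeR adjusted p 0.0123). *RBPMS2* ENSDARG00000045930 changed by -0.51 (± 0.31, edgeR adjusted p 0.204). The neurofilament gene *nefma* (ENSDARG00000021351) read 25.6, 17.8 and 16.5 CPM in uninjured, 18.1, 3.97 and 8.09 CPM in injured Wt and 21.2, 13.6 and 48.7 CPM in *mych*-/- libraries, and its change of -0.99 (± 0.54, edgeR adjusted p 0.165) did not pass the test, although without Wt 2 dpi replicate 1 it did (-1.73, edgeR adjusted p 0.0221). *nefla*, the neurofilament light chain gene, stood at 2.20 to 5.16 CPM in uninjured and 3.1 to 4.02 CPM in Wt 2 dpi libraries, with a log2 fold change of 0.04 (± 0.51, edgeR adjusted p 0.966).

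**Figure D3:**
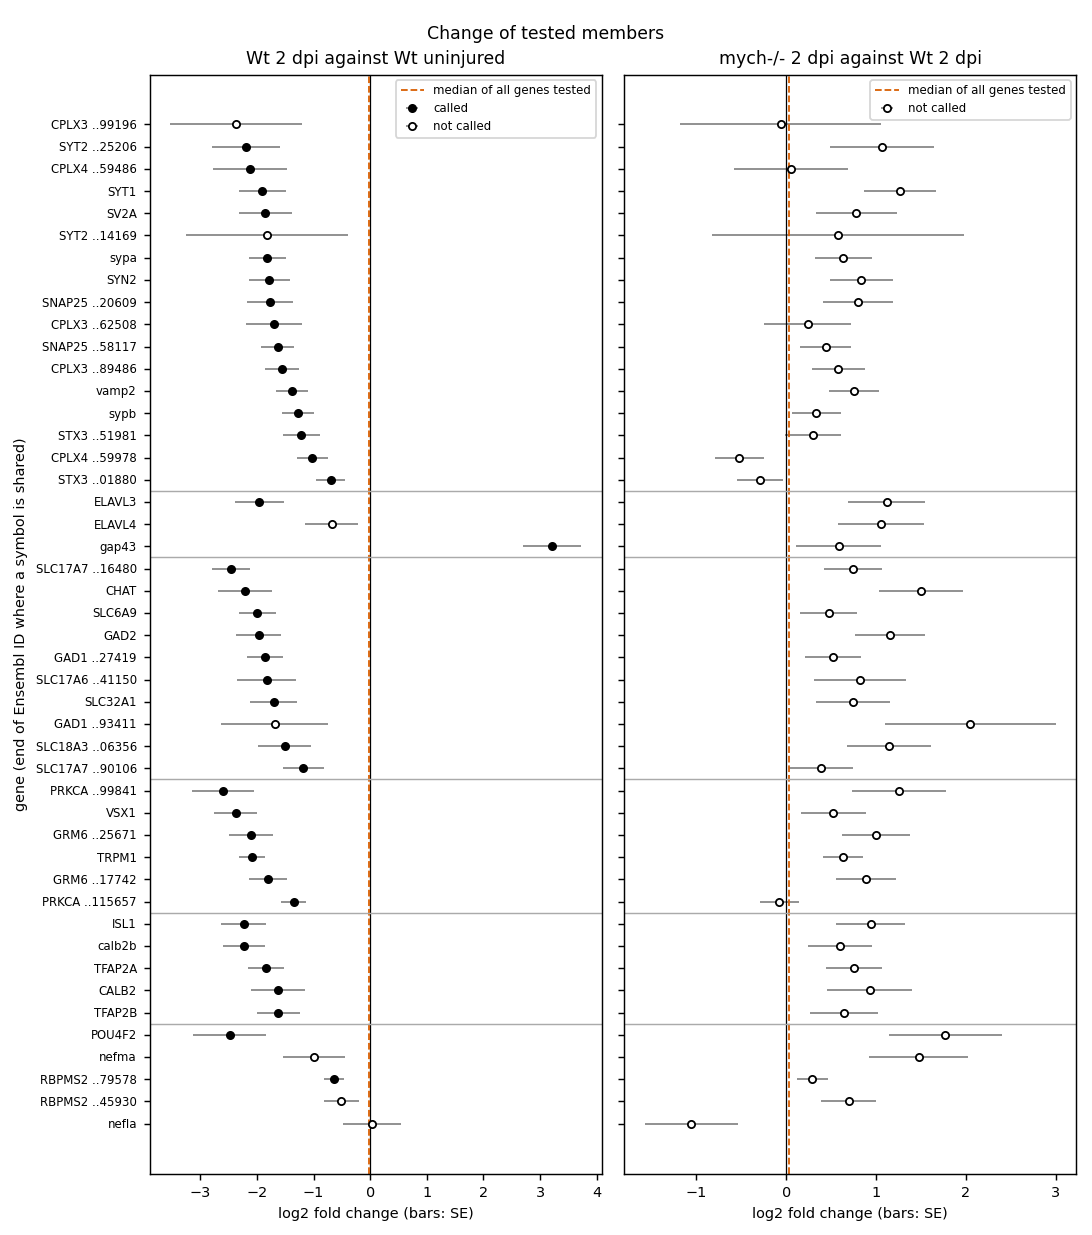
Log2 fold change of 46 tested members (horizontal axes, points with SE bars, filled where called) with injury in Wt MG and between genotypes at 2 dpi, the roles separated by grey lines and the dashed line at the median of all genes tested. With injury 44 of 46 points lie below 0, and between genotypes 41 of 46 lie above 0 with none called.

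The neuron classes were then compared within libraries, by the mean log2 CPM of the tested IDs of a role. The bipolar mean was 5.08 to 5.95 in uninjured, 3.28 to 3.69 in Wt 2 dpi and 3.79 to 4.46 in *mych*-/- 2 dpi libraries. It was the only one of the 6 roles for which the 3 groups did not overlap. The longer list of 20 further bipolar IDs did overlap between the injured genotypes (2.97 to 3.65 in Wt, 3.44 to 4.07 in *mych*-/- libraries). The amacrine mean was 6.60 to 7.07, then 3.94 to 5.40, then 4.93 to 6.10. The ganglion mean was 4.86 to 5.29, then 3.79 to 4.64, then 4.38 to 5.26. Of the injured libraries only *mych*-/- replicate 3 (5.26) reached the uninjured range. In the longer list of 23 further ganglion IDs, every *mych*-/- library (2.52 to 3.91) lay below every uninjured one (4.02 to 4.44). Relative to the bipolar mean of the same library, the ganglion mean was -0.10, 0.17 and -1.09 in the uninjured libraries, 0.95, 0.51 and 0.61 in the Wt 2 dpi libraries and 0.62, 0.60 and 0.80 in the *mych*-/- libraries. This difference of log2 levels was higher in every injured library than in every uninjured one, and uninjured replicate 3 stood apart from the other uninjured libraries. The amacrine mean relative to the bipolar mean showed no such separation, at 1.67, 1.52 and 0.65 in uninjured, 1.70, 0.66 and 1.54 in Wt 2 dpi and 1.56, 1.14 and 1.64 in *mych*-/- libraries. These differences describe the short member lists and were not tested. Longer lists of further ganglion (23) and bipolar (20) IDs, taken up below, did not separate the ganglion from the bipolar mean in this way. In Wt 2 dpi replicate 2 their means were 1.69 and 2.97. In the uninjured libraries they were 4.44 and 5.04, 4.07 and 4.86, and 4.02 and 5.24.

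**Figure D4:**
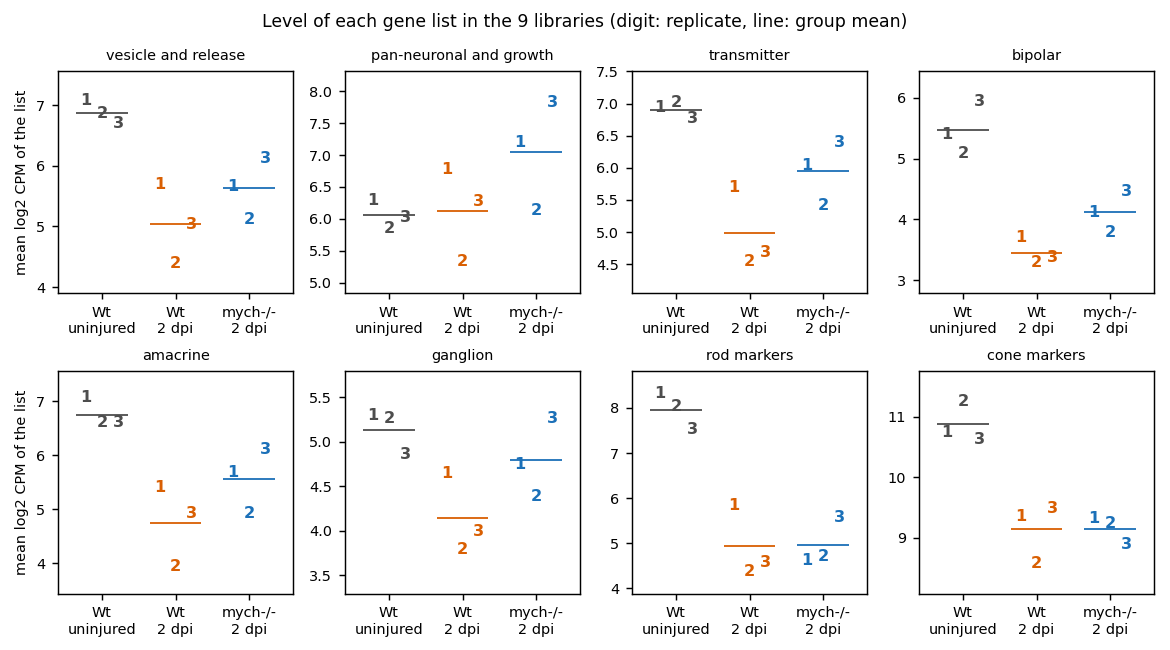
Mean log2 CPM of each role list and of the rod and cone marker lists (vertical axes, with ranges that differ by panel) in the 3 groups, where digits are replicate numbers and lines group means. The bipolar panel shows 3 groups that do not overlap, and rod and cone markers are at like levels in both injured genotypes.

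Most members varied together between the libraries of an injured group, and less so between the uninjured libraries. Among the Wt 2 dpi libraries, replicate 1 held the highest level of 36 of the 48 members and replicate 2 the lowest of 36. Among the *mych*-/- libraries, replicate 3 held the highest level of 35 members and replicate 2 the lowest of 38. Among the uninjured libraries, replicate 1 held the highest level of 23 members and replicate 3 the lowest of 25, but replicate 3 was the highest in 5 of the 6 bipolar IDs. The same order was not counted over all genes. The summed level of the 50 IDs was 13402, 12722 and 11431 CPM in uninjured, 5728, 2595 and 3858 CPM in injured Wt and 6676, 4099 and 8011 CPM in *mych*-/- libraries. MG markers moved the other way in part. *mych*-/- replicate 2, low in the members, had the highest MG marker sum of all libraries (35318 CPM), and *mych*-/- replicate 3 (13027 CPM) and Wt 2 dpi replicate 1 (14835 CPM), high in the members, had the lowest sums of their groups. By mean log2 CPM of the MG markers, Wt 2 dpi replicate 1 (7.82) was not the lowest of its group, as replicate 3 stood at 7.66. Wt 2 dpi replicate 1 also held the highest sum of pigment epithelium markers, 406 CPM over 9 IDs against 27.7 to 96.1 CPM in the other libraries. Their part in the results was not tested.

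The second comparison asked whether these genes differ in injured MG preparations when *mych* is mutated. By edgeR 0 of the 48 members were called between *mych*-/- and Wt MG at 2 dpi (1.69% of all genes were, 0.366% higher), and 18 of 48, all higher in *mych*-/- MG, had an unadjusted p under 0.05 (37.5% of the members, against 19.4% of all genes). The log2 fold change was above 0 in 42 of the 48, or 87.5%, against 52.1% of all genes, and its median was 0.72 against 0.03. Because the members varied together between libraries, the 42 and the 18 are not counts of independent results. The mean log2 CPM of the 48 was 5.37, 4.24 and 4.71 in Wt 2 dpi and 5.55, 4.98 and 5.98 in *mych*-/- libraries, which overlap. In 4 members every *mych*-/- library was above every Wt 2 dpi library, and 9.28% of all genes were so placed. These were *TRPM1*, *VSX1*, *GRM6* ENSDARG00000017742 and *GAD1* ENSDARG00000093411. The smallest p-values belonged to *CHAT* (log2 fold change 1.5 ± 0.47, edgeR adjusted p 0.115) and *SYT1* (1.27 ± 0.40, edgeR adjusted p 0.12), followed by *GAD2* (1.15 ± 0.39, edgeR adjusted p 0.136), *POU4F2* (1.77 ± 0.62, edgeR adjusted p 0.156) and *TRPM1* (0.63 ± 0.23, edgeR adjusted p 0.158). *ELAVL3* differed by 1.12 (± 0.43, edgeR adjusted p 0.186), *nefma* by 1.47 (± 0.55, edgeR adjusted p 0.173) and *vamp2* by 0.76 (± 0.28, edgeR adjusted p 0.166).

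The result between genotypes changed with the tool and with 1 library more or less. With DESeq2's Wald test 4 of 49 members passed and all were higher in *mych*-/- MG, namely *CHAT*, *SYT1*, *GAD2* and *POU4F2*. By it 8.72% of all genes were called in either direction, 1151 of the 1802 lower. The share of all genes called higher was thus smaller than 8.72%, and it is the one to set beside the 4 members. Leaving out Wt 2 dpi replicate 1 gave 7 of 49 members by edgeR, namely *ISL1*, *SLC18A3* ENSDARG00000006356, *GAD2*, *CHAT*, *nefma*, *SYT1* and *POU4F2* (4.61% of all genes in either direction, 546 of 982 lower). Leaving out *mych*-/- replicate 2 gave 4 of 49, *ELAVL3*, *CHAT*, *SYT1* and *vamp2* (4.81% of all genes in either direction, 627 of 1026 lower). All of these members were higher in *mych*-/- MG, whereas the shares given for all genes cover both directions. Without Wt 2 dpi replicate 2, *mych*-/- replicate 1 or *mych*-/- replicate 3, 0 members were called. Over all genes these fits called 8, 9 and 28, against 347 in the main fit.

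The 6 members with a log2 fold change below 0 between genotypes included *nefla* (-1.06 ± 0.52), *CPLX4* ENSDARG00000059978 (-0.52 ± 0.27), *STX3* ENSDARG00000001880 (-0.29 ± 0.26), *PRKCA* ENSDARG00000115657 (-0.08 ± 0.22) and *CPLX3* ENSDARG00000099196 (-0.06 ± 1.12). For *nefla* every *mych*-/- library was below every Wt 2 dpi library, a placing found for 14.5% of all genes, at 1.14, 2.06 and 2.02 CPM against 3.1, 3.74 and 4.02 CPM. The medians over the roles were 0.58 for vesicle and release, 1.05 for pan-neuronal and growth, 0.78 for transmitter, 0.76 for bipolar, 0.75 for amacrine and 0.69 for ganglion. Without Wt 2 dpi replicate 1 the transmitter median was 1.34. Rod and cone markers had medians of -0.15 and 0.03 in the same comparison, with 0 of 15 and 0 of 12 IDs called by edgeR (1 cone marker and 0 rod markers with an unadjusted p under 0.05).

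Both comparisons use the Wt 2 dpi libraries, so opposite signs in them are not independent of each other. Of the 46 members whose mean CPM was lower in Wt 2 dpi than in uninjured MG, 37 had a *mych*-/- mean between both Wt means, 5 had one below the Wt 2 dpi mean and 4 one at or above the uninjured mean. The same count was not made for all genes, so whether the 37 are particular to the members was not tested. In *mych*-/- MG at 2 dpi against Wt uninjured MG, where injury and genotype differ together, 18 members were lower and 1, *gap43*, was higher (9.53% and 16.3% of all genes were, 25.8% in either direction). The median log2 fold change was -1.0 against -0.00 for all genes. Scaling by library size only gave 12 calls (24.3% of all genes) and DESeq2's Wald test 29 (31.7%). Without *mych*-/- replicate 1, and likewise without *mych*-/- replicate 2, edgeR gave 12. The 18 made part of the 40 that were lower in Wt MG, and 22 of the 40 were not called here. The share of all genes called lower was likewise smaller here, at 9.53% against 19.8% with injury in Wt MG. In 36 of the 48 members every *mych*-/- library lay below every uninjured library. The share of all genes so placed is not given here. By role, 9 of 19 vesicle and release IDs, 3 of 10 transmitter IDs, 3 of 6 bipolar IDs, 3 of 5 amacrine IDs and 0 of 5 ganglion IDs were lower. *VSX1* (-1.85 ± 0.37, edgeR adjusted p 0.00345) and *SLC17A7* ENSDARG00000016480 (-1.71 ± 0.33, edgeR adjusted p 0.00244) were among them. *gap43* rose by 3.80 (± 0.53, edgeR adjusted p 0.000361). *ELAVL4* (0.37), *nefma* (0.48), *RBPMS2* ENSDARG00000045930 (0.18) and *GAD1* ENSDARG00000093411 (0.36) were the other members with a value above 0, and none of them was called.

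Further synaptic and neuronal genes, on lists that do not contain the members, followed the same direction. Of 176 such IDs tested, 133 were lower with injury in Wt MG (75.6%, median -1.77) and 2 were higher. Of all genes tested, 19.8% were called lower and 22.3% higher, which is the share to set beside each list below. Of the release genes, 34 of 38 were lower, among them *ctbp2a* (-1.79 ± 0.21, edgeR adjusted p 4.2e-05), whose product forms the synaptic ribbon, and *rims2b* (-1.82 ± 0.22, edgeR adjusted p 6.68e-05), an active zone scaffold. Of the postsynaptic genes 42 of 47 were lower, with the AMPA receptor gene *GRIA3* ENSDARG00000032737 at -2.53 (± 0.30, edgeR adjusted p 5.01e-05). The bipolar list gave 15 of 20 (median -1.72), with the smallest p-values at the G protein genes *gnao1b* (-1.93) and *GNB3* (-2.14). The amacrine and horizontal list gave 14 of 23 (median -1.72) and the ganglion list 9 of 23 (median -1.61). The general neuronal list gave 19 of 25. The IDs that rose were *tubb5*, a beta-tubulin gene, from a mean of 50.2 CPM to 364 CPM (2.86 ± 0.27, edgeR adjusted p 9.5e-06), and *SNCG* ENSDARG00000034423, a synuclein gene (0.55 ± 0.20, edgeR adjusted p 0.0437).

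Between genotypes 163 of these 176 IDs had a log2 fold change above 0 (median 0.81), as had 52.1% of all genes (median 0.03). By mean log2 CPM per library, each of these lists overlapped between the injured genotypes. Of the 176, 3 were called, all higher in *mych*-/- MG (0.366% of all genes were called higher). Whether these calls hold with 1 library missing was not tested. Without Wt 2 dpi replicate 2, 8 of all genes were called between genotypes, against 347 in the main fit. The 3 called IDs were *GRIA3* ENSDARG00000032737, with means of 224 CPM in uninjured, 39.0 CPM in injured Wt and 114 CPM in *mych*-/- MG (log2 fold change 1.54 ± 0.29, edgeR adjusted p 0.0328), *NRN1* ENSDARG00000071860, which encodes neuritin (2.32 ± 0.34, edgeR adjusted p 0.014), and *kif5ab*, which encodes a kinesin heavy chain (1.12 ± 0.22, edgeR adjusted p 0.0384). *NRN1* stood at a mean of 7.28 CPM in uninjured, 2.68 CPM in injured Wt and 13.4 CPM in *mych*-/- MG.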

How the data were processed

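Per the study's methods, polyA RNA of GFP+ MG was read on a NovaSeq machine and mapped to the zebrafish genome GRCz11. The submitters' processing notes name cutadapt 2.3, FastQC 0.11.8, STAR 2.7.8a, RSEM 1.3.3 and DESeq2, without roles. Which annotation release was used, and whether counting used strand, is not given in the sources used here, so overlapping and near-identical genes are uncertain. The authors deposited unnormalized counts, with a row for each Ensembl gene and a column for each library. Symbols came from a names table that covers 93.4% of the 23707 IDs.

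The test was that of edgeR 4.0.16 (R 4.3.3). After filterByExpr, 20484 genes were scaled by TMM and fitted in 1 quasi-likelihood model of all 9 libraries with robust dispersion and a mean per group. P-values were adjusted by Benjamini-Hochberg over all genes tested. The SE is the absolute log2 fold change divided by the square root of F. Mean log2 CPM used a prior count of 2. The study's FPKM threshold was not applied. The fits were tested on simulated counts with known changes. Alternatives were DESeq2 size factors, library size only, DESeq2 1.42.0's Wald test, no filter, only the 6 libraries compared, a block for the replicate number, a log2 fold threshold of 0 or 1, and each library left out in turn.

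Members, roles and lists were chosen with earlier results of these data known. Values per library are given for, in each role, the 3 IDs with the smallest injury p and the 2 with the smallest genotype p. They are also given for called risers and for some pairs of copies, and some further members were chosen after their values were seen. Of the other lists, at most the 2 called IDs with the smallest injury p are named, beside those that rose or were called between genotypes, chosen after their values were seen. Some genes that the rule would name are not reported here, while counts and medians cover all members. Tables and figures were made in Python 3.11.15 with pandas 2.3.3 and matplotlib 3.10.9.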

Additional observations from a re-analysis of the deposited data

How the results depend on the processing

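The count of 41 members called with injury was 40 to 41 under the other scalings, DESeq2's Wald test, no filter, the 6 libraries compared and no fold threshold, 39 with a log2 threshold of 1, and 34 to 41 with 1 library missing. Among the 41, 33 were called in each of the 15 alternative fits, and 8 lost the call in at least 1, namely *CALB2*, *CPLX3* ENSDARG00000062508, *CPLX4* ENSDARG00000059486, *SLC17A6* ENSDARG00000041150, *SLC17A7* ENSDARG00000090106, *SLC18A3* ENSDARG00000006356, *SYT2* ENSDARG00000025206 and *STX3* ENSDARG00000001880 (adjusted p 0.0505 to 0.208 where lost). Without Wt 2 dpi replicate 1, *ELAVL4* (-1.34, edgeR adjusted p 0.0327) and *nefma* (-1.73, edgeR adjusted p 0.0221) were called lower. The count of 0 between genotypes was 4 with DESeq2's Wald test and 0 to 7 with 1 library missing, and 39 of the 42 members above 0 stayed above 0 in every alternative fit. The count of 19 in *mych*-/- against uninjured MG was 12 with library size only, which moved the median of all genes to 0.15 from -0.00, 29 with DESeq2's Wald test, and 12 (without *mych*-/- replicate 1 or 2) to 25 with 1 library missing. What causes these differences was not tested. Replicate numbers did not pair the libraries (correlations of deviations from group means of -0.075 to 0.09 over 9 pairs), and with a replicate block the counts were 40 with injury, 0 between genotypes and 25 for *mych*-/- against uninjured MG. At this depth, members under about 10 CPM, such as *GAD1* ENSDARG00000093411 and *SYT2* ENSDARG00000014169, had the largest errors.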
